A study of Rattus norvegicus with 16 samples.

Results

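Ovaries of BRCA1+/- and wild-type rats were compared after both genotypes had received olaparib. The rule took the 4 arrays titled as olaparib-injected BRCA1+/- ovaries and the 4 titled as olaparib-injected wild-type ovaries, 8 of the 16 arrays in the study, and all 20175 genes that passed the signal filter. Every animal was a female Jcl:SD rat, a Sprague-Dawley stock. In the groups compared here olaparib was given subcutaneously at 50 mg/kg each day for 14 days from 3 weeks of age, and the ovary was taken 24 h after the last dose. The other 8 arrays were from vehicle animals, again 4 of each genotype, and they serve below as the same genotype comparison without the drug. The sources used here do not give the composition of the vehicle, its dosing scheme, or the kind and position of the lesion in Brca1. Whether the animals of a group came from separate litters was also not given, so the p-values measure only the spread between these samples. No animals were described as pooled.

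BRCA1 is a core protein of homologous recombination, the repair of double-strand breaks from the sister chromatid, and it works with BARD1, PALB2 and BRCA2. Olaparib blocks PARP1 and PARP2, enzymes that add poly(ADP-ribose) chains at single-strand breaks, and traps them on DNA. Cells without homologous recombination are killed by such inhibitors, whereas a heterozygous cell retains a functional copy of the gene. The ovary of a juvenile rat holds oocytes in follicles of granulosa and theca cells, and corpora lutea form from follicles once ovulation has begun.

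Levels are given as log2 signal, the log2 of the processed intensity minus the 75th percentile of that array, so a value of 0 is a probe at that percentile. Differences are BRCA1+/- minus wild-type on this scale, and levels are not compared between probes. Arrays sat on 2 slides, with replicates 1 and 2 of every group on slide 1 and replicates 3 and 4 on slide 2. Each group also occupied an array row of its own on both slides, so array position and group cannot be told apart. The 75th percentile of the signal was between 202 and 566 over the 16 arrays, 55.5% to 60.7% of probes were well above background and no spot was saturated. Expression profiles of the 8 olaparib arrays correlated across genes at 0.914 to 0.966 among wild-type ovaries, 0.942 to 0.981 among BRCA1+/- ovaries and 0.922 to 0.986 between the genotypes.

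With olaparib, no gene differed between the genotypes at an adjusted p under 0.05 (limma with Benjamini-Hochberg adjustment, 0 of 20175, 0% called). The lowest adjusted p was 1 and the lowest unadjusted p was 0.000415. At an unadjusted p under 0.05 there were 186 genes (0.922%), 111 of them higher in BRCA1+/- (0.55%) and 75 lower (0.372%). Evenly spread p-values would put 1009 genes there, so small p-values were fewer than that. The sizes were small too, with a median absolute difference of 0.15, and the difference was over 1 in either direction for 482 genes (2.39%). All 4 BRCA1+/- arrays lay above all 4 wild-type arrays for 66 genes (0.327%) and below them for 53 genes (0.263%). The genotype label took 7.32% of the sum of squares over these 8 arrays. A label without any effect would also take some share with 4 arrays a group, so this value does not measure an effect. Within slide 1 and within slide 2 no gene was called either, with lowest adjusted p-values of 0.934 and 0.555 in limma.

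The precision differed from gene to gene. The median half-width of the 95% interval of a genotype difference was 0.63, and for 64.5% of all genes the whole interval lay between -1 and 1. For the remainder a difference of 1 lies inside the interval, so a difference of that size cannot be set aside with 4 arrays a group. The wild-type olaparib group was the more variable one, with a median SD of 0.43 against 0.33 in BRCA1+/-. Its SD was the larger for 13872 genes, or 68.8%.

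**Figure D1:**
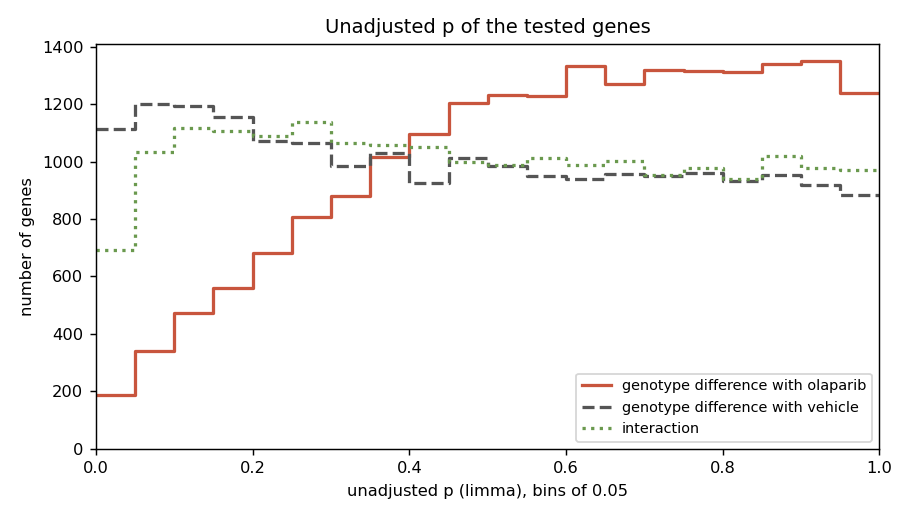
Number of genes (vertical axis) in each bin of 0.05 of the unadjusted limma p (horizontal axis) for the genotype difference with olaparib, the genotype difference with vehicle and the interaction. The olaparib line begins at 186 genes in the lowest bin and climbs to the right, while the vehicle line begins at 1112 genes and the interaction line at 691.

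In vehicle animals the same genotype comparison also called no gene (limma, lowest adjusted p 0.589), but 1112 genes (5.51%) had p under 0.05 before adjustment. Of these, 391 were higher in BRCA1+/- (1.94% of all genes) and 721 were lower (3.57%), and the difference was over 1 in either direction for 1356 genes (6.72%). The groups were separate for 254 genes upward (1.26%) and 443 downward (2.2%). Whether the number of genes with small p-values differed between treatments was not tested. Oviduct-type signal, described below, was high on BRCA1+/- vehicle replicates 3 and 4 and on no wild-type vehicle array. Its part in the vehicle and interaction values was not tested. The interaction, which tests for each gene whether the genotype difference changed with olaparib, called no gene in limma (lowest adjusted p 0.968), with 691 genes at an unadjusted p under 0.05 (3.43%) and 57.9% of genes at an interaction above 0. The genotype comparisons in drug and vehicle share no arrays. Across the 20175 genes, the correlation of their differences was -0.29 (Pearson's r) or -0.20 (Spearman's rho), and the sign was the same for 42.2% of genes; genes are not independent replicates, and this is a description. Of the 186 olaparib genes with an unadjusted p under 0.05, 23 were also under 0.05 with vehicle, which is 12.4% of the olaparib genes and 2.07% of the vehicle genes, and 15 of the 23 had the same direction in both.

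Brca1 itself was measured first, since it bears on the genotype labels. The probe in use lies on chromosome 10 at 90512623-90512682 as the array file places it, with build rn4 in the header and the position not checked against a genome. Its log2 signal in wild-type olaparib ovaries was -0.77, -0.74, 0.17 and -0.91. In BRCA1+/- olaparib ovaries it was -0.50, -0.82, -1.18 and -0.37. The ranges overlapped, since the wild-type arrays other than replicate 3 fell inside the BRCA1+/- range. The difference was -0.16 ± 0.27 (SE, n = 4 per group; limma unadjusted p = 0.571, adjusted p = 1), with a 95% interval from -0.74 to 0.42. A two-sided exact permutation test gave p = 0.657 (0.657 after adjustment over 4 genes), where 70 arrangements allow no p below 0.0286. Within slide 1 the difference was 0.09 and within slide 2 it was -0.41. With vehicle the difference was -0.67 (limma unadjusted p = 0.0264, adjusted p = 0.861), and the interaction had an unadjusted p of 0.201. An array probe outside the altered region of the gene does not test the label, and where the lesion lies relative to the probes is not known here.

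A second Brca1 probe, not used for the level because it was well above background on only 3 of the 16 arrays, leaves 1 of its forward reading frames open and differed by -0.22. The Brca1 levels above come from the first probe, whose sequence is not printed. The second probe is shown with that of Defb20, the gene with the smallest unadjusted p among named genes higher in BRCA1+/-. Both are 60-base probes from the array files, written 5′ to 3′ in lower case.
Brca1, second probe: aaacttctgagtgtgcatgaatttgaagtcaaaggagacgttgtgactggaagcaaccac
Defb20: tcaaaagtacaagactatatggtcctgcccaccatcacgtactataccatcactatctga

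The levels of the drug's targets overlapped between the genotypes. Parp1, which supplies most poly(ADP-ribose) at breaks, was 3.79, 4.26, 4.11 and 4.18 in wild-type ovaries and 4.33, 4.24, 3.99 and 4.06 in BRCA1+/- ovaries. The arrays of the genotypes were interspersed, and the difference was 0.07 ± 0.16 (SE; limma unadjusted p = 0.656), with an interval from -0.27 to 0.41. Parp2, the second enzyme the drug inhibits, was 0.58, 1.09, 1.08 and 0.27 against 1.01, 0.94, 0.61 and 1.43, a difference of 0.24 with overlapping groups and an interval from -0.36 to 0.85. Parp3, a related mono-ADP-ribosyltransferase, differed by 0.33 (interval -0.54 to 1.19), with -0.58 within slide 1 and 1.23 within slide 2, against -0.78 with vehicle. Exact permutation p-values for these 3 genes were between 0.457 and 0.6. Of 19 measured members of the PARP family and ADP-ribose turnover, 13 differences were above 0 with a median of 0.07, where the median of all genes was 0.02 and 53.2% of all genes were above 0. The hydrolases Macrod1 and Oard1, which remove ADP-ribose from proteins, were at -0.27 and 0.28, and neither passed the test.

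Among 25 measured genes of homologous recombination and BRCA1 partners, none was called and none had an unadjusted p under 0.05. There were 20 differences above 0, with a median of 0.10 (0.24 within slide 1 and -0.05 within slide 2). Bard1, the obligate partner of BRCA1 in its ubiquitin ligase, was -0.78, -0.39, 0.00 and -0.73 in wild-type ovaries and -0.18, -0.51, -0.81 and 0.01 in BRCA1+/- ovaries. These ranges overlapped almost fully, and the difference was 0.10 (interval -0.44 to 0.65). Brca2, which acts at resected ends, differed by 0.12 (interval -0.52 to 0.75). Mre11, the nuclease of the complex that senses and resects breaks, had the smallest p of the group: -1.50, -0.98, -1.24 and -1.09 in wild-type against -0.89, -0.88, -1.11 and -0.80 in BRCA1+/- ovaries. Replicate 3 of the BRCA1+/- arrays fell among the wild-type values, and the difference was 0.28 ± 0.16 (SE; limma unadjusted p = 0.103, adjusted p = 1). A further probe of Mre11 differed by -0.03. Mus81, a structure-specific nuclease, was at 0.29 (unadjusted p = 0.196).

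The other repair pathways held no called gene either. In the Fanconi anaemia pathway, which unhooks interstrand crosslinks, 7 of 11 measured members were above 0 (median 0.05), with Fanca at 0.14, Fancb at 0.05 and Fancc at 0.20. Its median was 0.13 within slide 1 and -0.05 within slide 2. In base excision and single-strand break repair, 10 of 15 were above 0 (median 0.13). Xrcc1, the scaffold recruited by PARP1 to single-strand breaks, differed by -0.04, its ligase Lig3 by -0.04, and Apex1, the abasic-site endonuclease, by 0.28 (unadjusted p = 0.114). In end joining, 5 of 13 were above 0 and the median was -0.03 (0.04 with scaling to the median, 0.18 within slide 1 and -0.24 within slide 2). Xrcc5 and Xrcc6, the Ku subunits, were at -0.00 and -0.06 and Xrcc4 at 0.27. Over the 83 repair genes of these lists, none had an unadjusted p under 0.05, and the largest absolute difference was 0.34. Of their differences, 55 (66.3%) were above 0, where 53.2% of all genes were. With vehicle 17 of 83 were above 0, where 42.2% of all genes were. All 83 were well above background on each of the 8 olaparib arrays, and for 78 of them (94%) the 95% interval with olaparib lay between -1 and 1.

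**Figure D2:**
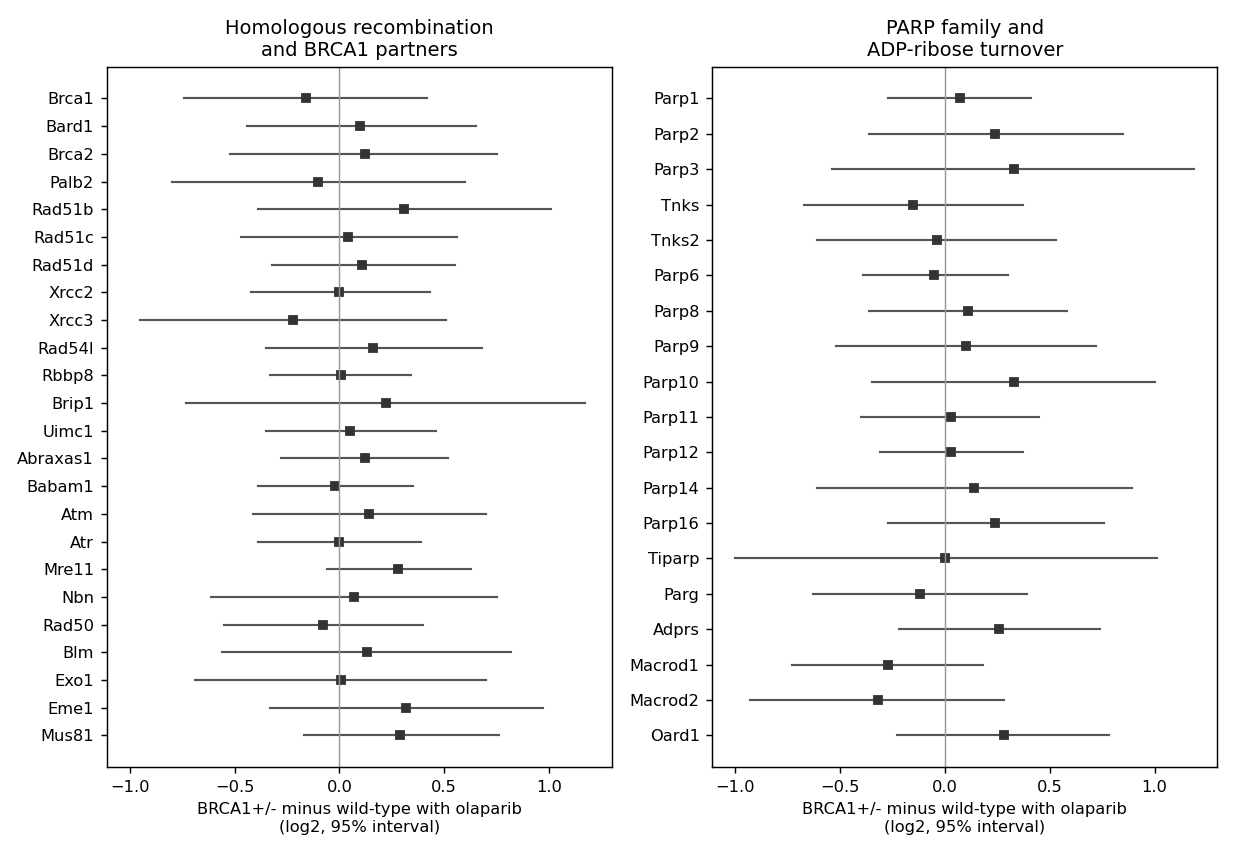
Genotype difference with olaparib (horizontal axis, log2, BRCA1+/- minus wild-type) of 24 of the 25 measured homologous recombination genes and the 19 measured PARP family and ADP-ribose turnover genes; squares are limma estimates from 4 arrays a group and lines are 95% intervals. Every interval spans 0, including that of Mre11 at 0.28, and the widest ones, such as that of Parp3 from -0.54 to 1.19, pass 1.

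Cell cycle genes, which in the growing follicle mark mainly dividing granulosa cells, were at a median difference of 0.11 with 30 of 35 above 0, and none was called. Mki67, a marker of cycling cells, was 2.57, 2.99, 3.32 and 2.63 in wild-type and 3.26, 3.17, 2.10 and 3.14 in BRCA1+/- ovaries. BRCA1+/- replicate 3 was the lowest of all 8 and the remaining values were interspersed, giving a difference of 0.04 (unadjusted p = 0.9). Top2a and Ccnb1, of mitosis and chromosome separation, differed by 0.18 and 0.10. With vehicle the same list had 2 of 35 above 0 and a median of -0.53, where 42.2% of all genes were above 0 with a median of -0.06. Within slide 1 the olaparib median was 0.32 and within slide 2 it was -0.08, so the sign was not the same on both slides.

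Of the p53 targets and apoptosis genes, 10 of 25 were above 0 (median -0.12) and none was called. Cdkn1a, the p21 inhibitor induced by p53, was 3.80, 4.94, 2.76 and 5.98 in wild-type ovaries and 4.67, 3.98, 4.69 and 4.75 in BRCA1+/- ovaries, with the BRCA1+/- values all inside the wild-type range (difference 0.15, unadjusted p = 0.778). Mdm2, the ubiquitin ligase of p53, differed by -0.30 and Bbc3, the pro-apoptotic PUMA, by -0.25. Btg2, an antiproliferative p53 target, had the smallest p of the list, at -0.81 ± 0.38 (SE; limma unadjusted p = 0.0503). Its difference was 0.08 within slide 1 and -1.70 within slide 2.

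Oocyte genes were at a median of 0.32 with 14 of 16 above 0, and none was called. Zp1, Zp2 and Zp3, the coat proteins of the oocyte, differed by 0.31, 0.58 and 0.20. Figla, the transcription factor that switches on the zona genes, was -2.72, -2.76, -1.24 and -3.86 in wild-type ovaries and ran from -2.47 to -1.17 in BRCA1+/- ovaries. Wild-type replicate 3 was among the high values and replicate 4 the lowest of all, so the groups overlapped (difference 0.80 ± 0.47 SE, unadjusted p = 0.107). The list median was 0.32 with vehicle as well, and 0.77 within slide 1, -0.11 within slide 2 and 1.16 without the 6 arrays of the study with oviduct-type signal. In whole ovaries, fewer cells of a type and less RNA per cell cannot be told apart.

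Granulosa genes did not separate the genotypes, with 8 of 14 above 0 and a median of 0.03 (0.62 within slide 1 and -0.50 within slide 2). Amh, the hormone of small growing follicles, was 3.76, 3.23, 6.11 and 4.69 in wild-type and 4.29, 4.80, 4.39 and 4.71 in BRCA1+/- ovaries. Wild-type replicate 3 was the highest and the BRCA1+/- arrays were tightly grouped in the middle (difference 0.10, unadjusted p = 0.839). Fshr, the receptor for follicle-stimulating hormone, differed by 0.20. Inha, the inhibin alpha subunit that granulosa cells secrete, differed by 0.04.

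Several luteal and steroid genes varied widely among the wild-type animals. Akr1c3, which the array files list under the older symbol Akr1c18 and which clears progesterone in the regressing rat corpus luteum, was 0.86, 6.25, -4.69 and 8.54 in wild-type ovaries and 4.97, 7.03, 8.40 and 7.62 in BRCA1+/- ovaries. Wild-type replicates 1 and 3 were below every BRCA1+/- array and replicates 2 and 4 were within or above them. The difference was 4.27 ± 2.01 (SE; limma unadjusted p = 0.0517, adjusted p = 1), with an interval from -0.04 to 8.57, and it was 1.79 without wild-type replicate 3. Aldo-keto reductases form a family of similar sequences, so part of this signal may come from a related transcript.

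Ptgfr, the prostaglandin F receptor of luteal cells, was -4.27, -0.93, -7.16 and 1.89 in wild-type ovaries and -2.42, 0.07, 1.15 and 0.02 in BRCA1+/- ovaries. Wild-type replicates 1 and 3 were again the lowest 2 arrays, and the difference was 2.32 ± 1.45 (SE; unadjusted p = 0.13). Star, the protein that carries cholesterol into mitochondria for steroid synthesis, was 5.79, 6.93, 0.51 and 6.47 against 6.66, 5.98, 7.02 and 6.11. Only wild-type replicate 3 stood apart, and the difference was 1.52 with it (unadjusted p = 0.157) and 0.05 without it. Runx2, a transcription factor of ovulation and luteinisation, was -4.44 on wild-type replicate 3 and between 1.31 and 2.96 on the other 7 olaparib arrays.

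The luteal list score, the mean of its 9 measured genes after centring each over the 16 arrays, was -1.24, 0.41, -3.07 and 0.74 in wild-type and -0.29, 0.29, 0.59 and -0.02 in BRCA1+/- ovaries. There were 6 of 9 differences above 0 with a median of 0.50. The low wild-type replicates 1 and 3 were the same arrays that carried signal of oviduct-type epithelium, at ciliated scores of 3.45 and 3.27. Among BRCA1+/- arrays, replicates 3 and 4 carried that signal, at 2.59 and 1.66, with luteal scores of 0.59 and -0.02. The part of this signal in the luteal values was not tested. Without the 6 arrays of the study that carried it, which leaves 2 arrays in each olaparib group, the luteal median was -0.37 and Akr1c3 differed by -1.39.

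Among theca genes a BRCA1+/- animal was the low one with olaparib. Cyp17a1, the androgen-forming enzyme of theca cells, was 4.91, 4.28, 6.41 and 4.37 in wild-type ovaries and 4.77, 5.70, 4.61 and -1.93 in BRCA1+/- ovaries. Apart from BRCA1+/- replicate 4 the groups were interspersed, and the difference of -1.70 ± 1.70 (SE; limma unadjusted p = 0.332) was 0.64 within slide 1 and -4.05 within slide 2. Wild-type vehicle replicates 2 and 4 were about as low for Cyp17a1, at -1.57 and -1.74. Lhcgr, the receptor for luteinising hormone, was also lowest on that array, at -2.58, against -0.40 to 0.63 on the other 7. Cyp11a1, the side-chain cleavage enzyme that makes pregnenolone, differed by -0.01, and Hsd3b1, which converts pregnenolone to progesterone, by -0.27. Over steroid synthesis 8 of 15 differences were above 0 (median 0.10, and -0.21 without the 6 arrays), and over cholesterol synthesis and uptake 7 of 21 (median -0.03, 0.05 with scaling to the median, -0.37 without the 6 arrays and -0.40 to 0.27 leaving out single arrays), with Sqle, the squalene epoxidase of that pathway, at -0.13.

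**Figure D3:**
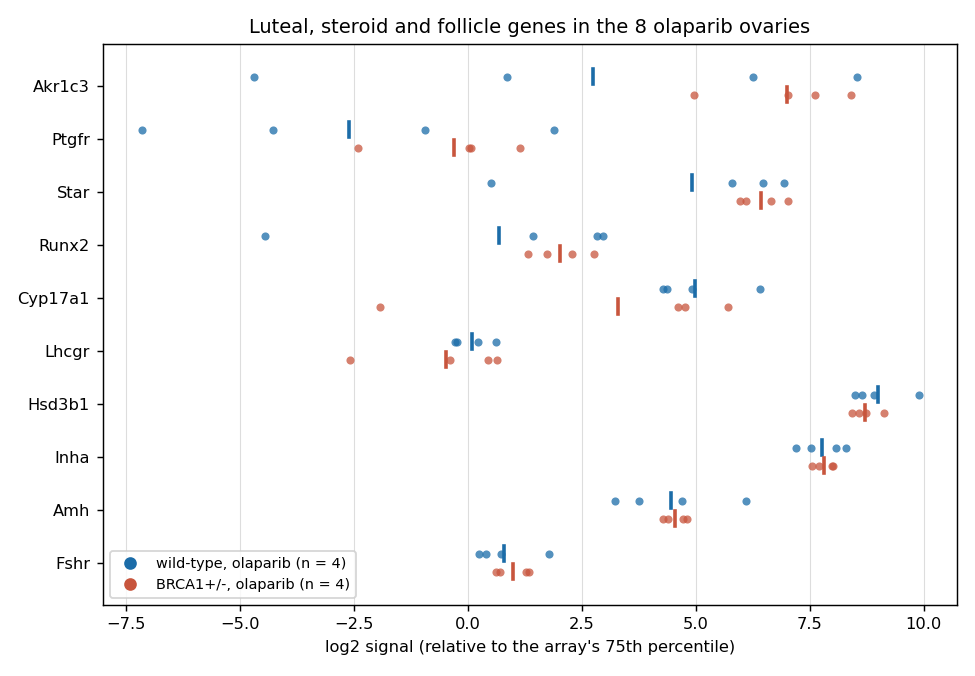
Log2 signal (horizontal axis) of luteal, steroid and follicle genes on the 8 olaparib arrays; dots are single ovaries, and short vertical lines are means of 4. The genes shown were chosen after their values were seen. Wild-type ovaries reach down to -4.69 for Akr1c3 and 0.51 for Star, a BRCA1+/- ovary reaches down to -1.93 for Cyp17a1, and the dots of Amh, Inha and Fshr overlap between the genotypes.

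No ligand or receptor of follicle growth was called. Within TGF-beta family signalling, which includes the inhibins, activins and bone morphogenetic proteins, 18 of 31 differences were above 0 with a median of 0.04 (-0.24 within slide 2). Inhba and Inhbb, the activin subunits, differed by -0.03 and -0.17, and the activin receptor Acvr2b by -0.29 (unadjusted p = 0.143). Acvr1c, a receptor of this family that is also on the adipocyte list, had the lowest difference at -1.62 ± 0.85 (SE; limma unadjusted p = 0.0769), with -2.96 within slide 1 and -0.29 within slide 2. In the ovulatory response to luteinising hormone 9 of 11 were above 0 with a median of 0.39 (-0.37 without the 6 arrays). Its members went in different directions, with Ptgs2, the prostaglandin synthase, at -1.49 and Ereg, an EGF-like ligand, at 1.41, and neither passed the test (unadjusted p = 0.142 and 0.246).

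Stroma, vessel and immune lists also lacked a called gene. Stroma and fibroblast genes were at a median of 0.21 with 8 of 11 above 0 (-0.07 within slide 1 and 0.55 within slide 2), and endothelial genes at 0.19 with 11 of 11 above 0. The endothelial median was -0.07 within slide 2 and -0.32 without the 6 arrays. Col1a1, a fibrillar collagen, was 5.79, 6.64, 5.10 and 4.78 in wild-type and 6.35, 5.62, 5.67 and 5.84 in BRCA1+/- ovaries, and Cdh5, the cadherin of endothelial junctions, was 2.30, 3.32, 1.45 and 4.04 against 2.90, 3.82, 2.57 and 2.58. For both genes the wild-type values ran beyond the BRCA1+/- range at the top and at the bottom. Macrophage genes were above 0 in 12 of 14 with a median of 0.38, but that median was -0.41 within slide 1, with the opposite sign within slide 2, and -0.30 without the 6 arrays. C1qc, a complement subunit made by macrophages, was at 0.81 (unadjusted p = 0.191). Gzmb, the granzyme of cytotoxic lymphocytes, was -4.33, -3.43, -5.23 and -2.65 in wild-type and -3.94, -1.43, -0.83 and -2.31 in BRCA1+/- ovaries, where BRCA1+/- replicate 1 fell among the wild-type arrays (difference 1.79 ± 0.84 SE, limma unadjusted p = 0.052). It was 2.43 with vehicle (unadjusted p = 0.0117, adjusted p = 0.861).

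Transcripts typical of oviduct epithelium were high on some olaparib arrays of both genotypes, and their source was not tested. Foxj1, the master regulator of motile cilia, was 4.06, -3.89, 3.85 and -0.75 in wild-type and -4.40, -2.92, 3.30 and 2.18 in BRCA1+/- ovaries. It was therefore high on 2 arrays of each genotype and low on the others. Pax8, a factor of secretory cells of the oviduct, followed it at 2.34, -1.19, 2.09 and -1.97 against -0.88, -1.91, 0.88 and -0.04. None of the 14 measured genes of ciliated epithelium was above 0 (median -0.87, range of scores -1.80 to 3.45 in wild-type and -1.93 to 2.59 in BRCA1+/-), and none of the 13 of secretory epithelium of oviduct type (median -0.56, scores -1.41 to 3.15 and -1.34 to 2.13). Within slide 2 the ciliated median was 0.89. No member of either list had an unadjusted p under 0.05. With vehicle, BRCA1+/- replicates 3 and 4 had ciliated scores of 3.84 and 1.41, and the score of every other vehicle array was negative. All 14 ciliated genes were above 0 with vehicle, with a median of 2.25. The vehicle comparison, and the interaction built on it, therefore carry this signal unevenly between the genotypes.

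Adipocyte genes varied mainly among the wild-type arrays. Lep, the fat cell hormone leptin, was the only one with an unadjusted p under 0.05, at -0.48, -1.93, -4.86 and -7.16 in wild-type and -5.08, -6.77, -6.67 and -6.33 in BRCA1+/- ovaries. Wild-type replicates 1 to 3 were above all BRCA1+/- arrays and replicate 4 was the lowest of the 8. The difference was -2.60 ± 1.04 (SE; limma unadjusted p = 0.0249, adjusted p = 1), and only 1 BRCA1+/- array was well above background, so the size rests on a group near background. It was -4.72 within slide 1, -0.49 within slide 2 and -1.56 without wild-type replicate 1. Adipoq, the hormone adiponectin, ran from -5.06 to 4.79 in wild-type and from -2.01 to 2.68 in BRCA1+/- ovaries. The list score was 2.54, 1.70, 0.32 and -1.51 against 0.12, -0.39, 0.17 and 0.18, and 4 of 13 differences were above 0. The part of fat tissue in the result for Lep was not tested.

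**Figure D4:**
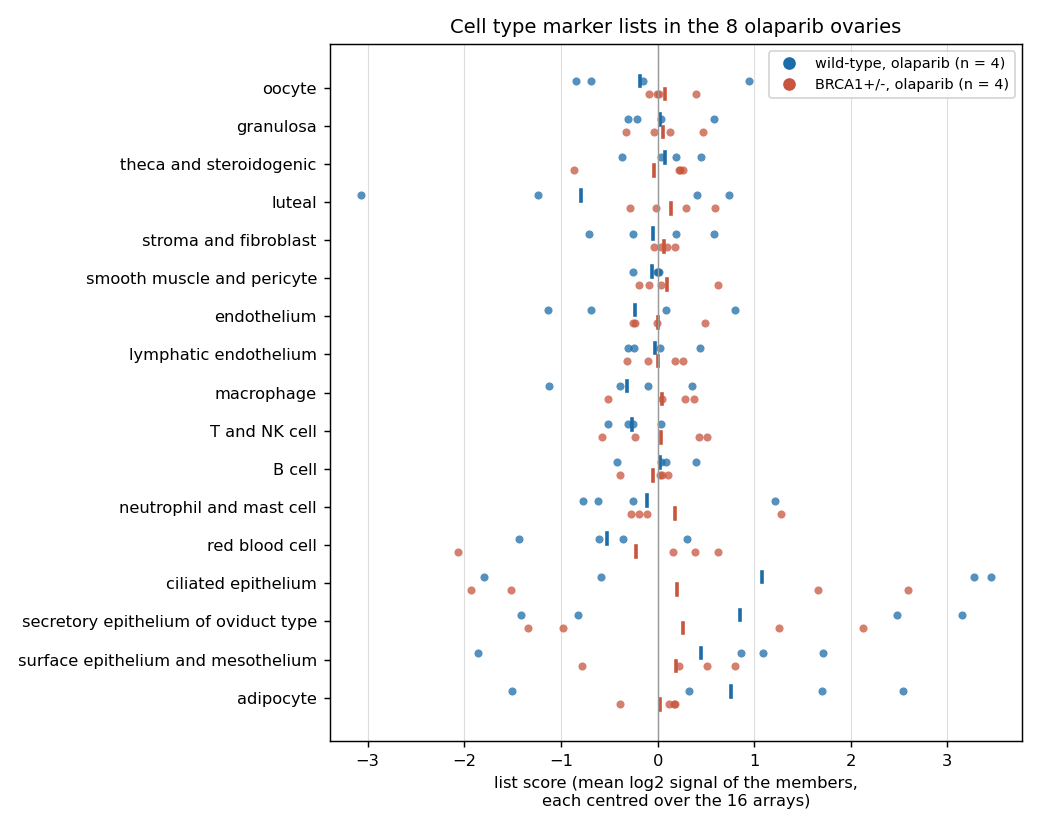
Score of each cell type list (horizontal axis, mean log2 signal of its measured genes, each centred over the 16 arrays) on the 8 olaparib arrays; dots are single ovaries and short vertical lines are means of 4. In no list did the scores of the genotypes separate, ciliated scores split each genotype into 2 high and 2 low arrays, and wild-type scores reach down to -3.07 in the luteal list.

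In all 36 lists, including those of cell types, the scores of the genotypes overlapped, and the wild-type range was the wider one in 27. The lists hold 489 measured genes, of which 3 had an unadjusted p under 0.05 (0.613%, against 0.922% of all genes) and 1 had separate groups. These were Lep, Per1 and Klf9. Klf9, a Krüppel-like factor induced by glucocorticoids and progesterone, was 1.83, 1.96, 1.66 and 1.79 in wild-type and 2.32, 2.39, 2.23 and 2.24 in BRCA1+/- ovaries. All BRCA1+/- arrays were above all wild-type arrays, by 0.48 ± 0.21 (SE; limma unadjusted p = 0.0354, adjusted p = 1), and the difference was 0.46 within slide 1, 0.51 within slide 2 and 0.42 with vehicle. Per1, a clock gene with a glucocorticoid response element, was at 3.63, 3.03, 2.56 and 2.90 against 3.23, 3.76, 3.82 and 3.46, where wild-type replicate 1 fell inside the BRCA1+/- range (difference 0.54, unadjusted p = 0.0497). Other glucocorticoid-responsive genes stood at -0.03 for Fkbp5, 0.32 for Tsc22d3 and 0.31 for Sgk1, and 8 of the 11 in the list were above 0 with a median of 0.32.

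The other lists also held no called gene. Theca genes were above 0 in 5 of 11 (median -0.01, and 0.07 with scaling to the median), smooth muscle and pericyte genes in 9 of 12 (median 0.16) and lymphatic genes in 2 of 6 (median -0.03, and 0.04 with scaling to the median). T and NK cell genes were above 0 in 6 of 10 (median 0.23), B cell genes in 1 of 5 (median -0.14), neutrophil and mast cell genes in 2 of 4 (median 0.10) and red blood cell genes in 2 of 9 (median -0.13). The red blood cell median was -0.69 within slide 1 and 0.65 within slide 2, and without the 6 arrays the medians were -0.11 for T and NK cells, 0.37 for B cells and -0.62 for neutrophils and mast cells. Surface epithelium and mesothelium stood at 1 of 10 (median -0.24; -1.56 within slide 1 and 0.85 within slide 2), imprinted growth genes at 6 of 13 (median -0.10), heat shock genes at 5 of 13 (median -0.02, and 0.06 with scaling to the median) and clock genes at 9 of 15 (median 0.09). These medians were read beside the median of 0.02 over all genes, which scaling to the median moved to 0.10.

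Stress and early response genes were spread around 0 as well. Immediate early genes were above 0 in 7 of 20 (median -0.20, and 0.27 within slide 1; 17 above 0 with a median of 0.40 with vehicle). Fos, the classical member, was -2.59, -2.19, 0.95 and 0.73 in wild-type and -2.77, -0.65, -2.19 and -2.12 in BRCA1+/- ovaries. Wild-type replicates 3 and 4, both on slide 2, were the high arrays, and the difference was -1.16 (unadjusted p = 0.129). Interferon-stimulated genes were above 0 in 13 of 20 (median 0.11, and -0.20 within slide 1), with Isg15, a ubiquitin-like protein, at 0.49. In the NRF2 oxidative stress response 13 of 15 were above 0 (median 0.19, and -0.11 without the 6 arrays), with Nqo1 at 0.45 and Txnrd1 at 0.31. Drug efflux genes were above 0 in 5 of 6 and ran from -0.20 to 0.53. Their median was 0.22, with -0.11 within slide 2 and -0.04 without the 6 arrays. Of these, Abcb1b, a P-glycoprotein pump of the cell membrane, differed by 0.19 and Abcg2 by 0.43. None of these genes passed the test.

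The genes with the smallest unadjusted p-values are described next as values that did not pass, 12 named genes in each direction. The differences of the 12 higher in BRCA1+/- ran from 0.52 to 1.73 with unadjusted p from 0.00152 to 0.0156, and 6 of them had groups that did not overlap. Those of the 12 lower ran from -1.81 to -0.54 with unadjusted p from 0.00341 to 0.0144, and 9 had groups that did not overlap. All 24 had the same sign on both slides. With vehicle, 5 of the higher and 8 of the lower genes had the same sign. These genes were chosen for their p in this contrast, so these counts describe them and support nothing.

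Of the 12 higher genes, 6 were not well above background on all 8 arrays. Defb20, a beta-defensin, was -5.23, -5.13, -5.16 and -5.19 in wild-type and -4.15, -4.61, -4.66 and -4.63 in BRCA1+/- ovaries. The groups were separate and close to background (difference 0.67 ± 0.17 SE, unadjusted p = 0.00152). Pcdhb5, a clustered protocadherin of cell adhesion, was not well above background on any wild-type array and was on 3 BRCA1+/- arrays. Set against the detection limit of the wild-type arrays it was 1.42-fold higher (measured means -6.24 and -4.93, limma unadjusted p = 0.00528). Wild-type replicate 4, at -4.96, was close to the BRCA1+/- mean. Prp2 was well above background on 2 BRCA1+/- arrays and no wild-type array with olaparib, and its difference of 1.08 became -0.02 with normexp background correction.

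Cdkn2a, which encodes the cell cycle inhibitor p16 and the p53 activator ARF, was -4.06, -2.36, -5.22 and -2.89 in wild-type ovaries and -2.18, -2.85, -1.99 and -1.74 in BRCA1+/- ovaries. It was above background on all 8 arrays; wild-type replicates 1 and 3 were the low ones, as for the luteal genes, and replicate 2 lay among the BRCA1+/- values. The difference was 1.44 ± 0.52 (SE; limma unadjusted p = 0.0155, adjusted p = 1), or 2.71-fold, and the vehicle difference was -0.85. It was 0.11 without the 6 arrays with oviduct-type signal. The interaction was 2.29 (unadjusted p = 0.00791, adjusted p = 0.968).

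Cst7, an inhibitor of cathepsins in cytotoxic and myeloid cells, differed by 1.30 and had separate groups. Tor3a, an ATPase of the torsin family, was -1.77, -1.58, -1.82 and -1.54 against -1.36, -1.17, -1.21 and -0.72, again with separate groups (difference 0.56 ± 0.19 SE, unadjusted p = 0.0114). RT1-CE11, a class I histocompatibility gene, was at 1.17 and Hs3st1, which sulfates heparan chains, at 0.52. Class I genes are near copies of each other and differ between rats of an outbred stock, so the gene behind the signal of RT1-CE11 is uncertain. The named genes without a known product in the table, LOC102551351, LOC102550842, LOC108350407 and 1700001K19Rikl, differed by 1.73, 1.03, 0.79 and 1.55. With vehicle they differed by -0.62, -0.73, -0.36 and 2.05, the last with a limma unadjusted p of 0.00172 (adjusted p = 0.861). With olaparib, LOC102551351 was well above background on 1 wild-type array. There 1700001K19Rikl was so on none of the wild-type and 2 of the BRCA1+/- arrays, so the olaparib sizes of these 2 genes rest on signals near background. LOC102551351 passed the signal filter only through the BRCA1+/- olaparib group, so its contrast in detection was partly set by the filter. Other LOC102551351 probes were well above background on no array and differed by -0.13 and -0.14 with olaparib.

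Kctd7, a potassium channel tetramerisation domain protein, headed the lower genes. It was -2.72, -2.90, -2.14 and -1.68 in wild-type and -3.04, -3.21, -4.21 and -3.23 in BRCA1+/- ovaries, with separate groups and a difference of -1.07 ± 0.30 (SE; limma unadjusted p = 0.00341, adjusted p = 1). The difference was -0.32 within slide 1 and -1.82 within slide 2. Kctd7 was also lower with vehicle, by -0.87 (limma unadjusted p = 0.0121), and the vehicle groups were separate too. Dip2b was 0.13, -0.41, 0.19 and 0.13 against -0.68, -0.38, -0.63 and -0.59, with wild-type replicate 2 among the BRCA1+/- values. A further probe of Dip2b differed by -0.16 where the one in use differed by -0.58.

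Akr1d1, a steroid 5-beta-reductase, was well above background on 3 wild-type arrays and on no BRCA1+/- array. Set against the detection limit of the BRCA1+/- arrays, wild-type was 1.45-fold higher (measured means -5.06 and -6.35, limma unadjusted p = 0.00452). Other Akr1d1 probes were well above background on no array and differed by -0.07 and -0.11. Svs6, a seminal vesicle secretory protein, was likewise well above background on 3 wild-type arrays and no BRCA1+/- array. By the same measure it was 1.46-fold higher in wild-type (measured means -5.09 and -6.89). Akr1d1 and Svs6 passed the signal filter only through the wild-type olaparib group, where they were high. Their contrast in detection was therefore partly set by the filter. LOC102550645 was well above background on all 4 wild-type arrays and no BRCA1+/- array. By the same measure it was 1.78-fold higher in wild-type (measured means -4.72 and -5.70).

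Grifin, a lens galectin-related protein, was 2.13, 0.70, 0.94 and -0.70 in wild-type and -0.52, -0.36, -1.30 and -0.77 in BRCA1+/- ovaries, and wild-type replicate 4 fell among the BRCA1+/- arrays (difference -1.50, and -1.50 with its other probe). Mapt, the microtubule-binding protein tau, differed by -0.74, Otos by -1.19, the serine protease Prss41 by -0.92, Ly6i of the Ly6 family by -0.94, Spmap2l by -1.81 and Doxl1 by -0.54. All 6 of these had separate groups. Ly6 genes are a family of similar sequences, so the signal of Ly6i is uncertain as to its member.

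**Figure D5:**
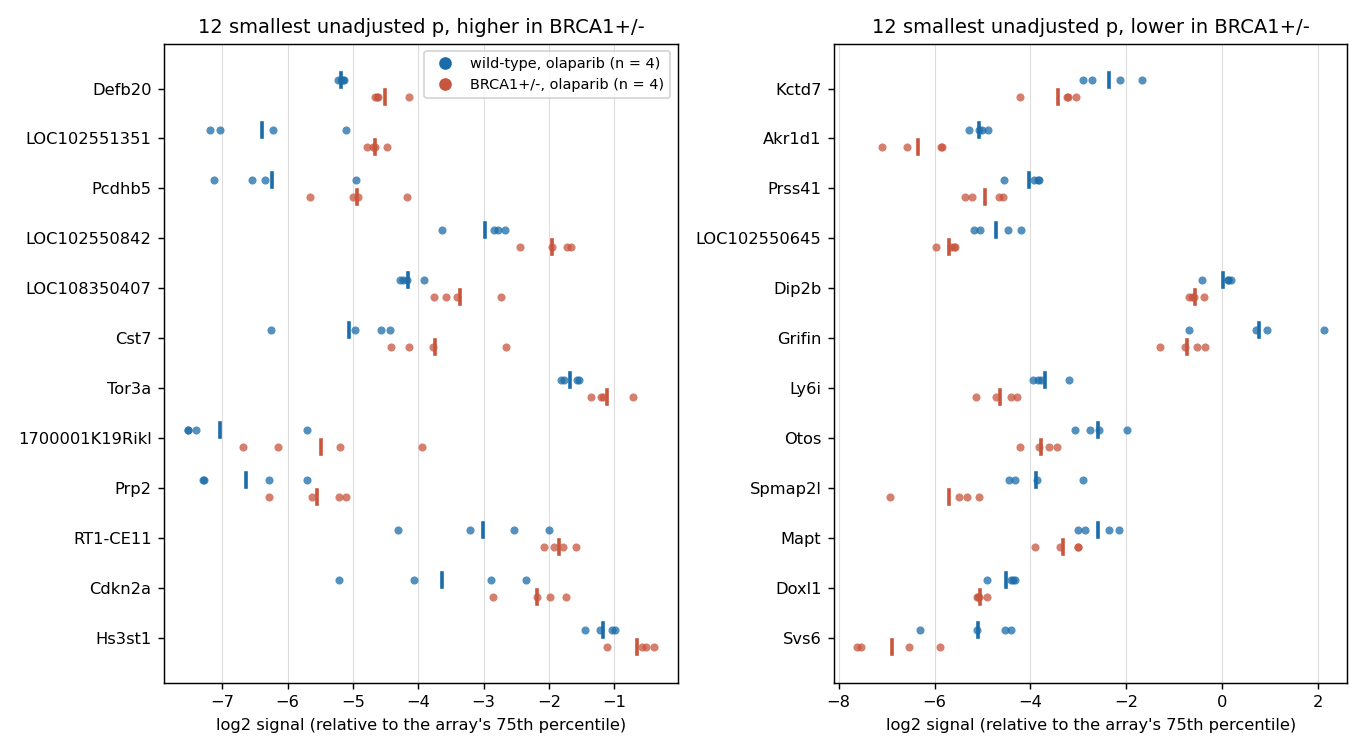
Log2 signal (horizontal axis) on the 8 olaparib arrays of the 12 named genes with the smallest unadjusted p in each direction, ordered by p from the top; dots are single ovaries and short vertical lines are means of 4. None passed the adjusted test, the groups are separate for 6 of the higher and 9 of the lower genes, and many dots lie below -4, near background.

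Few genes separated the genotypes in both treatments. There were 3 genes (0.0149%) whose groups did not overlap with olaparib or with vehicle and that moved the same way, and 1 (0.00496%) that moved in opposite ways. Besides Kctd7 these were Pxdc1 and Serpinb6b. Pxdc1 was -1.79, -1.23, -1.18 and -2.32 in wild-type and -1.17, -0.84, -0.90 and -1.13 in BRCA1+/- olaparib ovaries, by 0.62 with olaparib and 0.76 with vehicle. Serpinb6b, a serine protease inhibitor, was 0.77, 0.49, 0.62 and 0.73 against 0.80, 0.94, 1.06 and 1.18, by 0.34 with olaparib and 0.74 with vehicle. Both were higher in BRCA1+/- ovaries in each treatment, and neither passed the adjusted test in either.

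Of the 10 named genes with the smallest unadjusted p for the interaction, LOC102550842 had the larger difference with olaparib (1.03, against -0.73 with vehicle), and those below had the larger one with vehicle. Hspa4l, a heat shock protein of the HSP110 class, differed by -0.92 with olaparib and by 1.98 with vehicle (interaction -2.90, limma unadjusted p = 0.000753, adjusted p = 0.968). With olaparib it was 0.87, -1.65, -0.10 and 0.11 in wild-type and ran from -1.55 to -0.67 in BRCA1+/- ovaries, where wild-type replicate 2 was the lowest of all. H19, an imprinted long non-coding RNA, differed by -0.40 with olaparib and 1.77 with vehicle, Nr4a3, an orphan nuclear receptor, by -0.61 and 1.99, Rbp7, a retinol-binding protein, by -0.53 and 1.99, and Tbx20 by -0.97 and 2.70. In the other direction Acot4, an acyl-CoA thioesterase, differed by 0.39 and -1.19, Kif26b by 0.80 and -1.60, LOC103691330 by 0.69 and -1.24, and LOC100909782 by -0.01 and -1.56. All had an adjusted interaction p of 0.968 in limma. Of the 8 olaparib arrays, just 1 had Tbx20 well above background and 1 had Kif26b, so their olaparib differences are not measured levels on both sides.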

How the data were processed

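Total RNA of 16 rat ovaries was labelled with Cy3 and hybridised to single-colour Agilent arrays. The authors made spot intensity values with Agilent Feature Extraction 10.7 (version 10.7.1.1 per the file headers), with detrending and background subtraction done array by array. The deposited value table holds log2 values of the same arrays and served as an alternative; it has 0 columns without a sample. The labels' protocols name no statistical test.

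From 45598 non-control probes, 12 were left out for outlier spots. Spots of a probe were averaged, and the 75th percentile of the array was subtracted from the log2 processed intensity. A probe was kept if well above background on 3 of 4 arrays of at least 1 group (26808 probes). Names came from a RefSeq table through accessions (24371 probes), symbols (6729) or synonyms (258), or from the file (4918); 9310 had none. The brightest probe over the 16 arrays stood for a gene (20175 genes, 16376 with a symbol; unnamed probes stood for themselves). limma 3.58.1 in R 4.3.3 fitted a mean per group over 16 arrays (12 residual degrees of freedom); tests are two-sided, and calls have a Benjamini-Hochberg adjusted p under 0.05. The number of arrays limits the precision. A fold against the detection limit compares the bright group with each dim array at its weakest probe that was well above background. Where the gene's own signal on that array was higher, that signal was taken. A probe can go undetected above this limit, so such a fold is not a strict lower bound. The fit was run on simulated data with independent noise and large changes added to genes of small spread. That run checks the code and does not give the power of this contrast.

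Named genes are Brca1 and Parp1 to Parp3, the 12 symbols with the smallest p per direction, the first 3 members of each list with up to 2 more of small p, 5 per direction of the interaction, and genes separate in both treatments. The members and lists were chosen with earlier results of these data known. Deviations of same-numbered arrays of the genotypes from their group means correlated at -0.37, 0.45, 0.44 and -0.30. These signs are mixed, and each value rests on a single pair of arrays. They cannot decide whether the numbers pair animals, and the main fit used no pairing. Alternatives covered background correction, scaling, the value table, filters, probe choice, slides, array weights and single arrays. A few list members are counted in their lists but not reported singly here.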

Additional observations from a re-analysis of the deposited data

Results flagged for a closer look

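An array was singled out when its gap to the nearest of the other 3 in its group was too large a share of the group's range, by Dixon's 95% limit for 4 values. There were 26 such values in 480 checks of the genes and list scores reported here (5.42%), where chance gives about 1 in 20.

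Among wild-type olaparib ovaries, Brca1 at 0.17 on replicate 3 (others -0.91 to -0.74) stood apart in log2 signal. So did LOC102550842 at -3.64 on replicate 3 (others -2.84 to -2.67) and 1700001K19Rikl at -5.70 on replicate 4 (others -7.53 to -7.40). Equally apart were Prss41 at -4.55 on replicate 1 (others -3.92 to -3.83) and Dip2b at -0.41 on replicate 2 (others 0.13 to 0.19). Beside these stood Doxl1 at -4.91 on replicate 3 (others -4.41 to -4.32) and Tbx20 at -4.18 on replicate 4 (others -7.85 to -7.37). Further single arrays were Il2rb at -2.14 on replicate 4 (others -3.51 to -3.37) and Cd22 at 1.29 on replicate 4 (others 1.57 to 1.62). Of the list scores, smooth muscle and pericyte at -0.25 on replicate 4 (others -0.01 to 0.01) and PARP family and ADP-ribose turnover at 0.09 on replicate 2 (others -0.10 to -0.08) stood apart.

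Among BRCA1+/- olaparib ovaries, Defb20 at -4.15 on replicate 1 (others -4.66 to -4.61) stood apart in log2 signal. So did Kctd7 at -4.21 on replicate 3 (others -3.23 to -3.04) and Cyp17a1 at -1.93 on replicate 4 (others 4.61 to 5.70). Equally apart were S100a8 at 0.23 on replicate 4 (others -3.51 to -2.88) and S100a9 at 1.38 on replicate 4 (others -1.72 to -1.40). Beside these stood Hba-a1 at 7.49 on replicate 2 (others 8.54 to 8.61) and Hba-a3 at -7.86 on replicate 2 (others 4.02 to 5.24). Further single arrays were Gpm6a at -2.97 on replicate 3 (others -1.14 to -0.92) and Cdkn1a at 3.98 on replicate 2 (others 4.67 to 4.75). Also distant were Mki67 at 2.10 on replicate 3 (others 3.14 to 3.26) and Fosb at -2.34 on replicate 2 (others -5.19 to -4.90). Of the list scores, theca and steroidogenic at -0.87 on replicate 4 (others 0.22 to 0.26), neutrophil and mast cell at 1.28 on replicate 4 (others -0.28 to -0.11), red blood cell at -2.07 on replicate 2 (others 0.16 to 0.62) and adipocyte at -0.39 on replicate 2 (others 0.12 to 0.18) stood apart.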

How the results depend on the processing

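No gene was called with olaparib or for the interaction under any of the 31 alternatives in which each could be fitted; the interaction was not fitted with the 8 olaparib arrays alone. At an unadjusted p under 0.05 the 186 genes (59.7% higher) became 115 with normexp (48.7% higher), 160 with scaling to the median (70%), 457 of 34986 without a filter (35.7%), 827 within slide 1, 487 within slide 2, 285 with array weights, 415 (81.2%) without the 6 arrays with oviduct-type signal and 350 (37.1%) with that signal as a fixed term; the last 2 were chosen after seeing the data. With the replicate block it was 394, with no gene called, although whether the numbers pair animals is not known. Leaving out 1 array at a time gave 110 (without BRCA1+/- replicate 4) to 506 (without wild-type replicate 4), with 489, 358 and 130 without wild-type olaparib replicates 2, 3 and 1 and 320 without BRCA1+/- replicate 1; the causes were not tested. Brca1 was at 0.09 within slide 1, 0.16 without the 6 arrays and -0.27 to 0.09 leaving out single arrays. Parp1 was at -0.12 within slide 2 and -0.03 to 0.13 leaving out single arrays, and Parp3 at -0.58 within slide 1 and -0.39 without the 6 arrays. With normexp Prp2 and Kif26b were at -0.02. LOC100909782, at -0.01, was 0.01 with quantile normalization, 0.07 with scaling to the median, 0.02 within slide 2, 0.01 without the 6 arrays and -0.15 to 0.14 leaving out single arrays. Acot4 was -0.02 without the 6 arrays. For the 39 single genes tested, 1186 of 1204 values kept their direction. Most of these genes were chosen for a small p in these data. Leaving out a vehicle array, or taking slide as a block, cannot change the olaparib difference. A value that fell to near 0 also counted as kept, such as 0.06 for Defb20 and 0.07 for Pcdhb5. The count is therefore no support for these differences. Dim genes rest on signals near background, and 4 arrays a group limit every comparison.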

Other observations

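The values of 2 list members not described above split the arrays within both genotypes. Keap1, the repressor of NRF2, was -2.36, -2.31, -0.94 and -0.90 in wild-type and -2.02, -2.04, -0.94 and -0.95 in BRCA1+/- olaparib ovaries. The arrays of slide 1 were the low ones in both genotypes. Hba-a3, an alpha-globin gene, was 3.99, -7.92, -7.71 and 2.90 in wild-type and 4.02, -7.86, 4.23 and 5.24 in BRCA1+/- olaparib ovaries, low on 2 wild-type arrays and 1 BRCA1+/- array. Globin genes are near copies of each other, so the signal of this probe is uncertain as to its gene. Both genes were singled out after their values were seen.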
